A study of Mus musculus with 12 samples.

Results

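The Popeye domain gene family of the mouse has 3 members, Bves (also called Popdc1), Popdc2 and Popdc3, and all 3 were measured among the 19938 genes that had a probe set with a single symbol. Each member had 1 such probe set, so no choice among probe sets was needed. The family was chosen by its measured values in these arrays: the RNA of Bves was higher in L/L mutant fibroblasts than in their matched wild type and not in S/S mutant fibroblasts. The values of Bves in these mutant comparisons are therefore given as a description, without a test. Popdc2 and Popdc3 entered through their family name, not through their values.

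RNA was measured on 12 arrays of mouse embryonic fibroblasts, in 4 groups of 3. The S set held Rb1 S/S mutant cells and the Rb1 +/+ cells matched to them, called the S control here. The L set held Rb1 L/L mutant cells and their own Rb1 +/+ cells, the L control. All 4 groups were cultured with 10% serum up to passage 4 and then kept for 72 h in 0.1% serum, which arrests growth, so no group shows dividing cells in full serum. Rb1 encodes the retinoblastoma protein, which holds back genes that drive the cell cycle. Neither the nature of the alleles S and L nor strain or embryo age is given in the labels. Whether replicates were separate embryos or cultures is not given either, so the p-values cover the spread between these samples alone, which may be technical.

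Popeye domain proteins are membrane proteins whose part inside the cell, the Popeye domain, binds the second messenger cAMP. They are best known from heart and skeletal muscle, where they take part in pacemaking, conduction and the integrity of the muscle membrane. Bves is also found in epithelia, where it lies at cell junctions and takes part in adhesion. In fibroblasts much less is known of them.

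Fibroblast genes were strongly expressed in every group. The group means of the collagen gene Col1a1 were 12.53 to 12.99 and those of the filament gene Vim 13.31 to 13.51, on a log2 scale whose values ran from 2.43 to 14.67. Array 1 of the S control was unlike the rest, with an interquartile range of 3.10, where the next lowest array had 3.39. Sex was called from the arrays, as male where the Y-linked gene Eif2s3y read above Xist. By this rule array 1 of L/L and array 1 of the L control were male and the other 10 arrays female. Rb1 RNA was present in all arrays and did not pass the test in S/S (difference 0.87, adjusted p = 0.0976) or L/L (0.36, adjusted p = 1) with limma.

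Bves, the founding member of the family, was at 8.01, 8.08 and 7.99 in the S control. In S/S cells Bves was at 8.12, 8.04 and 8.21. In the L control Bves was at 7.93, 8.03 and 7.94, and L/L cells gave 9.02, 8.80 and 8.96. The S control overlapped both S/S and the L control, while the lowest S/S array (8.04) lay just above the highest L control array (8.03). All 3 L/L arrays lay above the other 9 arrays, which spanned 0.28 from lowest to highest. The lowest L/L array was 0.59 above the highest of those 9. Over all 19938 genes, the 3 L/L arrays lay above all 3 L control arrays in 9.71% and below them in 5.1%, and the rule used this comparison for Bves.

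**Figure D1:**
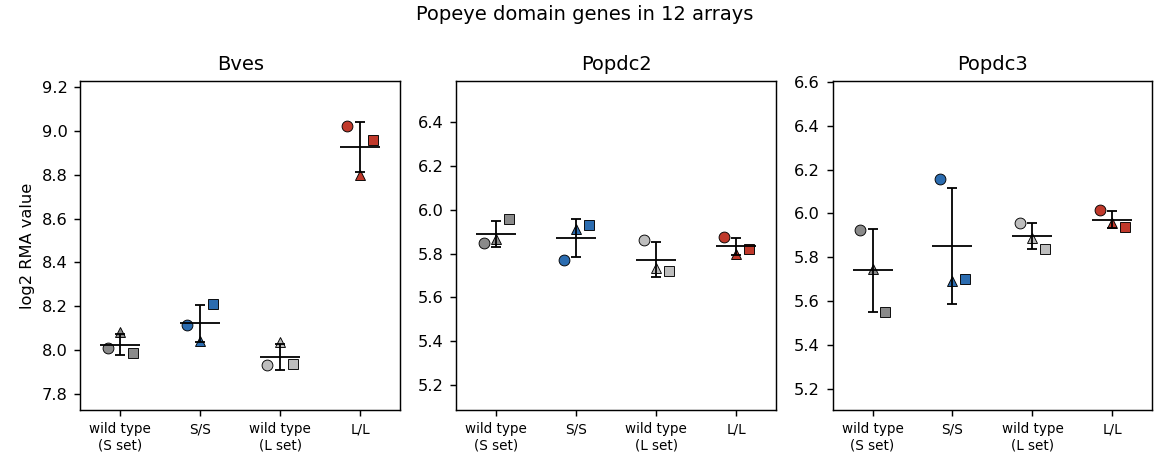
Log2 RMA values of Bves, Popdc2 and Popdc3 (y axes, each spanning the same number of log2 units) in the 4 groups, with a circle, triangle and square for arrays 1, 2 and 3, a line for the mean and a bar for the SD of 3 arrays. The 3 L/L arrays of Bves sit between 8.80 and 9.02, above the other arrays, which reach 8.21, while each mutant group overlaps its control for Popdc2 and Popdc3.

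As group means, Bves was 7.97 ± 0.06 (SD, n = 3) in the L control and 8.93 ± 0.12 (SD, n = 3) in L/L. The difference was 0.96 on the log2 scale (SE 0.10), or 1.94-fold. In the S set the means were 8.02 ± 0.05 (SD, n = 3) in the control and 8.12 ± 0.08 (SD, n = 3) in S/S, a difference of 0.10 (SE 0.10), or 1.07-fold. The L/L effect of Bves exceeded its S/S effect by 0.86 (SE 0.14). These differences led to the choice of the family and are not tested here.

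The L/L difference of Bves stayed between 0.91 and 1.02 when each array of the L set was left out in turn. Leaving out an S set array cannot move it. As this difference led to the choice of the family, these values are a description. Without both male arrays the difference was 0.89. Among female arrays alone Bves was at 8.03 and 7.94 in the L control against 8.80 and 8.96 in L/L, and the male pair read 7.93 and 9.02. Leaving out array 1 of the S control gave an S/S difference of 0.09 for Bves.

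The comparison of the controls with each other was not itself used to pick the family, but it shares all its arrays with the mutant comparisons that were. Bves did not pass there, with a difference of −0.06 (SE 0.10, adjusted p = 0.748) for the L control minus the S control. The 95% interval of this difference ran from −0.27 to 0.15. The sets differed widely in other genes: 8.71% of the 19938 genes passed between the controls (3.54% higher and 5.17% lower in the L control), and set, culture and array handling cannot be told apart. The count of 1736 genes became 525, 714 or 1098 without array 1, 2 or 3 of the L control, and 304 without both male arrays.

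Popdc2, a member best known from the heart, was at 5.85, 5.87 and 5.96 in the S control and at 5.77, 5.91 and 5.93 in S/S. The L control gave 5.86, 5.74 and 5.72 for Popdc2, and L/L cells gave 5.88, 5.80 and 5.82. All 4 groups overlapped, and the whole range over 12 arrays was 0.24. Popdc2 did not pass in S/S, with a difference of −0.02 (SE 0.09, adjusted p = 0.95), or in L/L, with 0.06 (SE 0.09, adjusted p = 1), where 0.12% and 0.0401% of all genes passed. The 95% interval of the L/L difference corresponded to 0.907-fold to 1.20-fold, and that of the S/S difference to 0.859-fold to 1.13-fold. A measured difference of the size seen for Bves lies outside both intervals. Popdc2 read close to the level of probe sets with no target, where a difference may be compressed. The intervals therefore do not exclude such a change in its RNA.

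Popdc3, which lies next to Bves on the same chromosome and is best known from skeletal muscle and heart, was at 5.93, 5.75 and 5.55 in the S control. In S/S cells Popdc3 was at 6.16, 5.69 and 5.70. The L control gave 5.96, 5.89 and 5.84 for Popdc3, and L/L cells gave 6.01, 5.96 and 5.94. Each mutant group overlapped its control, as did the controls each other. The S set was more spread out: the SD was 0.19 for the S control, 0.27 for S/S, 0.06 for the L control and 0.04 for L/L. Groups without overlap were found for 5.49% (above) and 6.29% (below) of all genes in S/S, and for 11.5% and 16.1% between the controls. Array 1 was the highest of its group for Popdc3 in all 4 groups.

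Popdc3 did not pass in S/S, with a difference of 0.11 (SE 0.13, adjusted p = 0.757), or in L/L, with 0.08 (SE 0.13, adjusted p = 1). The 95% intervals corresponded to 0.884-fold to 1.32-fold in S/S and 0.862-fold to 1.29-fold in L/L. A measured difference like that of Bves again lies outside them. Popdc3 too read close to the level of probe sets with no target, so such a change in its RNA is not excluded. Without S/S array 1, the highest of all 12, the S/S difference was −0.042. The difference between the effects of the mutants was 0.08 (SE 0.13, adjusted p = 0.889) for Popdc2 and −0.04 (SE 0.19, adjusted p = 0.966) for Popdc3, and neither passed, against 0.015% of all genes. Between the controls Popdc2 differed by −0.12 (SE 0.09, adjusted p = 0.481) and Popdc3 by 0.16 (SE 0.13, adjusted p = 0.516), also without passing.

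**Figure D2:**
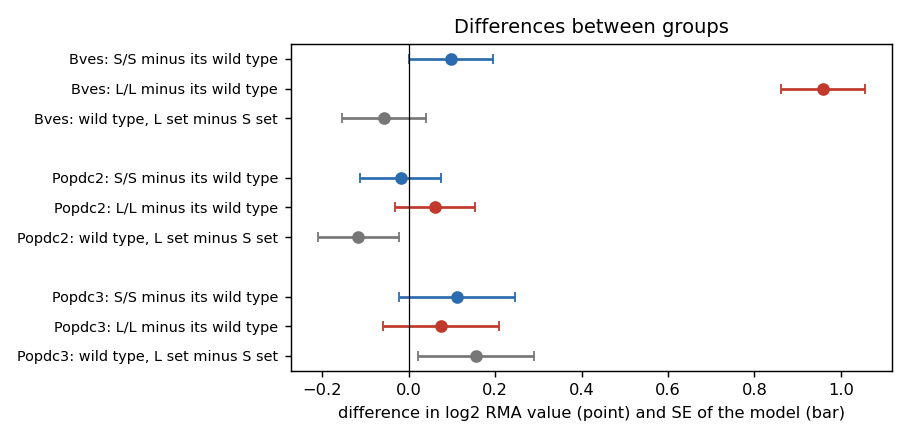
Differences in log2 RMA value (x axis) of the 3 genes in S/S and L/L against their controls and between the controls, with the SE of the model as bars. The L/L difference of Bves is 0.96, and the other 8 differences lie between −0.12 and 0.16.

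The levels of Popdc2 and Popdc3 were low. Probe sets with no target read above 0 on these arrays: those of the 3 Y-linked genes Eif2s3y, Uty and Kdm5d gave 3.82 to 5.51 in the 10 female arrays. Eif2s3y had also served to call those arrays female. Popdc2 ranged from 5.72 to 5.96 and Popdc3 from 5.55 to 6.16 over 12 arrays, close above that range, and Bves ranged from 7.93 to 9.02. Background differs between probe sets, so these values do not show whether Popdc2 and Popdc3 were expressed, and a difference at this level may be compressed. As the arrays measured whole cultures, a higher level in each cell and a larger share of expressing cells cannot be told apart.

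In the order of group means, Bves was lowest in the L control, followed by the S control, S/S and L/L, and of these steps only that from S/S to L/L lay between groups that did not overlap. The order was another one for Popdc2, with the L control lowest (5.77) and the S control highest (5.89), and for Popdc3, with the S control lowest (5.74) and L/L highest (5.97). Groups next to each other in these orders overlapped for both genes. Over the 12 arrays Pearson's r was 0.00 between Bves and Popdc2, 0.38 between Bves and Popdc3 and −0.61 between Popdc2 and Popdc3. These are descriptions over arrays that share groups.

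The chromosome around the members was examined next, with gene order from RefSeq. On one side of the pair Popdc3 and Bves the nearest measured gene was Prep, a peptidase gene, which differed by 0.09 in S/S and 0.03 in L/L. On the other side lay Lin28b, a regulator of let-7 microRNA maturation, at −0.13 and −0.05, and then the ubiquitin ligase gene Hace1, at 0.07 and 0.17. The group means of Lin28b (4.62 to 4.75) and of Grik2, further along that side (4.78 to 4.88), lay within the range of Y-linked probe sets in female arrays. Small differences at that level do not show that these genes were unchanged. The 5 measured genes on each side of the pair differed by −0.14 to 0.17 in L/L, and none of these 10 passed with limma, nor did any have an unadjusted p under 0.05. In S/S they ran from −0.22 to 0.58, the highest being the helicase gene Ascc3 (adjusted p = 0.411), with 0 passing and 1 at an unadjusted p under 0.05. Over all genes 0.0401% passed in L/L and 0.12% in S/S.

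**Figure D3:**
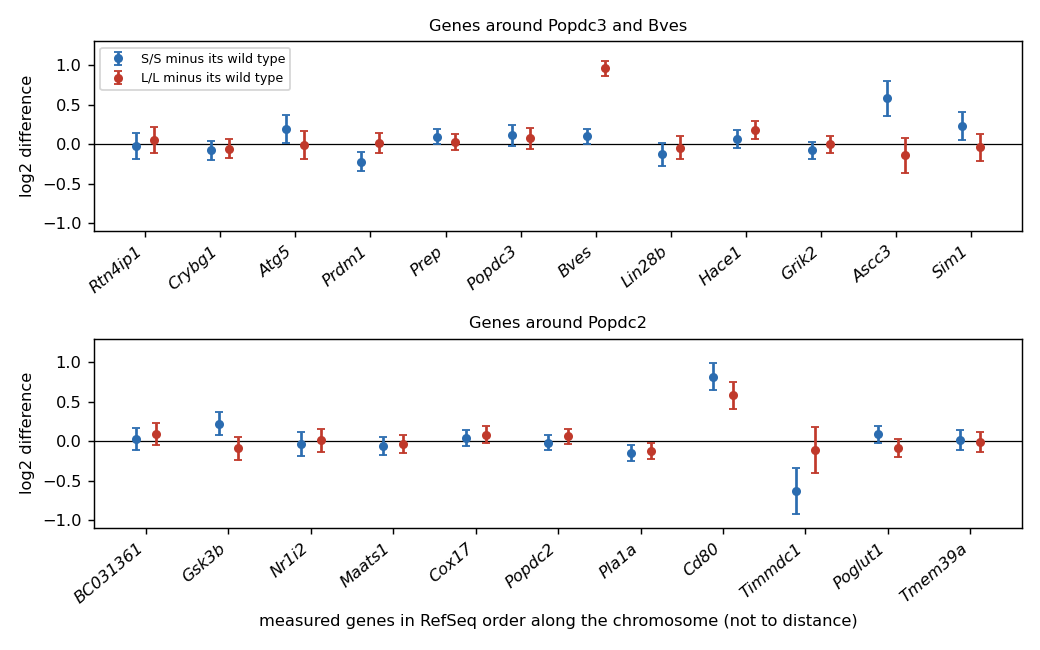
Log2 differences (y axes, bars are the SE of the model) of the measured genes around Popdc3 and Bves (upper panel) and around Popdc2 (lower panel), in gene order, in S/S and L/L against their controls. Bves, chosen for its L/L difference, is at 0.96 in L/L, and the neighbours of the pair lie between −0.14 and 0.17. Around Popdc2 the highest gene is Cd80.

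Around Popdc2 the neighbours Cox17, a copper chaperone gene, and Pla1a, a phospholipase gene, differed by 0.04 and −0.15 in S/S and by 0.09 and −0.13 in L/L. Cd80, a costimulatory ligand gene of antigen-presenting cells, lies 2 measured genes away from Popdc2. In all 3 arrays of each mutant Cd80 was higher than in its control. The differences were 0.82 in S/S (adjusted p = 0.102) and 0.59 in L/L (adjusted p = 0.633), without passing in limma. Of all genes, 5.49% were higher in all 3 S/S arrays and 9.71% in all 3 L/L arrays. Of the 10 neighbours of Popdc2, 0 passed in either mutant with limma, and 2 in S/S and 1 in L/L had an unadjusted p under 0.05. Over all genes 10.1% had such a p in S/S and 3.27% in L/L.

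The genes whose pattern was most like that of Bves were ranked by Pearson's r over 12 arrays, a measure that the 3 L/L arrays dominate. The top 5 were the cyclin E gene Ccne1 (r = 0.949), which drives entry into DNA replication, Slc43a3 (0.942), the glycosyltransferase gene B3galnt1 (0.937), the DNA repair gene Mgmt (0.922) and Fam81a (0.919). Over the 9 arrays outside L/L, r with Bves was 0.507 for Ccne1, 0.0131 for Slc43a3, 0.496 for B3galnt1, 0.498 for Mgmt and 0.579 for Fam81a. Likeness to Bves over 12 arrays was therefore mostly a matter of the L/L group.

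In single arrays Ccne1 was at 9.97, 9.94 and 10.12 in the L control and at 10.64, 10.48 and 10.61 in L/L. The S control gave 9.94, 10.24 and 10.06, and S/S cells 10.12, 9.98 and 10.18. Like Bves, Ccne1 was thus higher in the 3 L/L arrays than in the other 9, and its L/L difference was 0.57 (SE 0.11). The L/L differences of the other 4 were 1.19 for Slc43a3, 0.75 for B3galnt1, 0.41 for Mgmt and 0.77 for Fam81a, and their S/S differences ran from −0.23 for Slc43a3 to 0.18 for Mgmt. These genes were chosen through their likeness to Bves, so their L/L differences are given without a test.

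**Figure D4:**
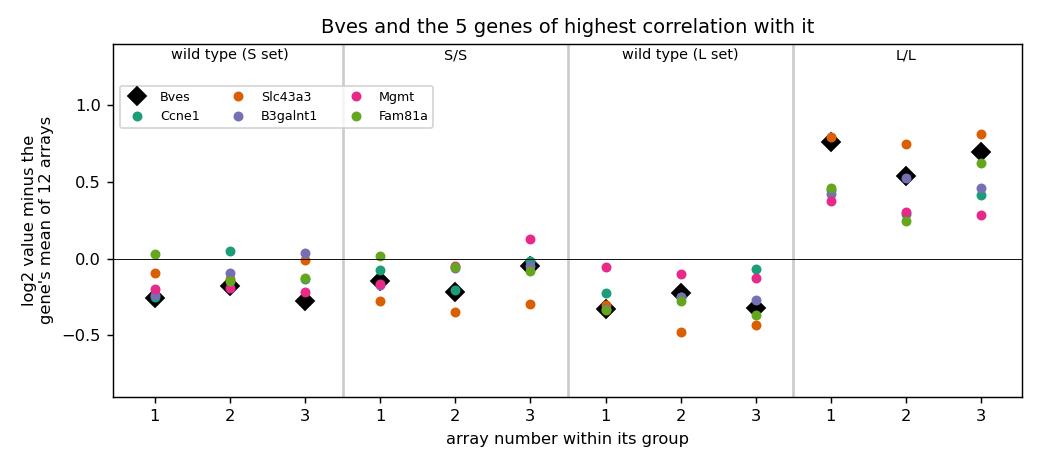
Log2 values minus each gene's mean of 12 arrays (y axis) for Bves and the 5 genes of highest correlation with it, by array within the 4 groups (x axis). All 6 genes are above their mean in the 3 L/L arrays, and in the other groups they scatter near or below it.

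For Popdc2 the most similar genes were the F-box gene Fbxl2 (r = 0.909), the chromatin regulator gene Kansl3 (0.894), the centrosomal gene Nde1 (0.886), Trim68 (0.882) and the follistatin-like gene Fstl3 (0.88). For Popdc3 they were the hyaluronan synthase gene Has1 (0.916), Gm4788 (0.915), Gm11780 (0.915), the elongin gene Elob (0.885) and Ankrd37 (0.883). Group means were 5.33 to 5.47 for Has1, 3.74 to 4.03 for Gm4788 and 4.75 to 4.95 for Gm11780. These lay below the 5.51 that Y-linked probe sets reached in female arrays, so their likeness to Popdc3 may be one of background. Both members varied little, so these rankings rest on differences of at most 0.24 and 0.61 log2 units over the arrays.

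Genes of 7 lists were then set beside the family: reported partners of Popeye proteins, 4 lists of cAMP signalling, tight junction genes and caveola genes. Of 88 genes in these lists, 82 were measured. In L/L 0 of the 82 passed with limma, against 0.0401% of all genes, and 7 higher and 1 lower had an unadjusted p under 0.05 (9.76% of the 82, against 3.27% of all genes). In S/S 0 of the 82 passed, against 0.12% of all genes, and 10 higher and 4 lower had an unadjusted p under 0.05 (17.1%, against 10.1% of all genes). Their median difference was 0.04 in L/L and 0.02 in S/S, and the median of all genes was 0.02 and −0.04. With array 1 of the S control left out, the adenylyl cyclase gene Adcy2 passed in L/L (adjusted p = 0.0313).

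Among the reported partners of Popeye proteins 13 of 14 genes were measured. The potassium channel gene Kcnk2, whose TREK-1 channel is modulated by Popeye proteins in a cAMP-dependent way, was at 7.49 in the L control and 7.87 in L/L (difference 0.38, SE 0.14, adjusted p = 1). The S control was at 7.82 for Kcnk2, close to L/L, and the S/S difference was −0.26 (adjusted p = 0.529). Ndrg4, a partner of Bves in heart development, differed by 0.64 in S/S (SE 0.15, adjusted p = 0.143) and −0.07 in L/L (adjusted p = 1). The tight junction scaffold gene Tjp1 differed by 0.36 in S/S (adjusted p = 0.482) and −0.08 in L/L (adjusted p = 1). The muscle caveolin gene Cav3, whose product binds Bves, differed by −0.03 in S/S and 0.02 in L/L. None of these passed.

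Among the adenylyl cyclases, which make cAMP, Adcy2 was at 8.15 in the L control and 8.69 in L/L. The difference was 0.54 (SE 0.11, adjusted p = 0.206 with limma). All 3 L/L arrays lay above the control, as for 9.71% of all genes. The S control was at 8.58 for Adcy2. Adcy4 differed by 0.39 (SE 0.13, adjusted p = 0.818) and Adcy7 by 0.37 (SE 0.16, adjusted p = 1). For Adcy4 the S control was at 8.37, the L control at 7.96 and L/L at 8.35. In S/S these cyclase genes differed by −0.17 (Adcy2), −0.18 (Adcy4) and 0.65 (Adcy7, adjusted p = 0.197). Among the phosphodiesterases, which break cAMP down, Pde8b differed by 0.36 and Pde4a by 0.24 in L/L, and Pde4d by 0.21 in S/S, with adjusted p-values of 1, 1 and 0.513.

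Other genes whose products bind cyclic nucleotides did not pass either. The pacemaker channel gene Hcn2 differed by 0.31 (SE 0.10, adjusted p = 0.868), the related gene Hcn3 by 0.04, and Prkar2a, a regulatory subunit gene of protein kinase A, by 0.20. In S/S the corresponding differences were −0.13, −0.36 and 0.32. Of the genes for protein kinase A and CREB factors, Atf1, Pkia and Creb1 had the smallest p-values, with S/S differences of 0.22, 0.34 and 0.15 and L/L differences of 0.00, −0.15 and −0.10, and none passed.

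**Figure D5:**
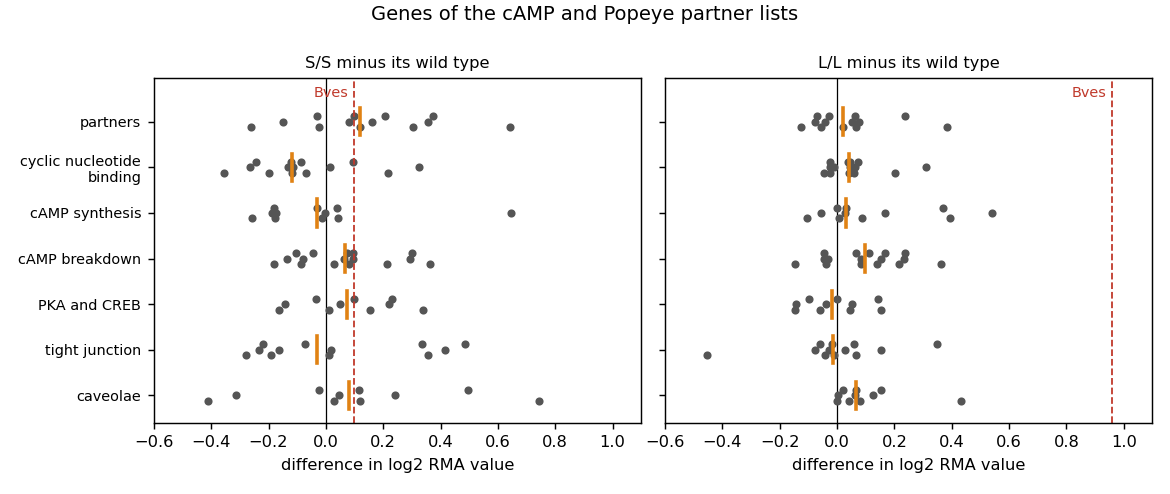
Differences in log2 RMA value (x axes) of the measured genes of 7 lists (rows, 1 point a gene, orange line the median) in S/S (left) and L/L (right), with the difference of Bves as a dashed line. In L/L the highest gene of the lists, Adcy2, is at 0.54. Bves, at 0.96, was chosen for its L/L difference, so its distance from the lists is no result.

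Junction and caveola genes were included because Bves lies at epithelial junctions and binds a caveolin. The claudin gene Cldn1 differed by 0.48 in S/S (SE 0.13, adjusted p = 0.218) and by −0.45 in L/L (SE 0.13, adjusted p = 0.513). Its mutant and control arrays did not overlap in either set. Over all genes, S/S arrays all lay above their control in 5.49%, and L/L arrays all below theirs in 5.1%. Cldn12 and the junctional adhesion gene F11r differed by 0.33 and 0.41 in S/S and by −0.04 and 0.35 in L/L. Among caveola genes, Cavin2 differed by 0.75 in S/S and 0.15 in L/L, Cav2 by 0.49 and 0.43, and Pacsin3 by −0.41 and 0.08. None passed, with adjusted p-values of 0.257 to 0.404 in S/S for Cldn12, Cavin2, Cav2 and Pacsin3.

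Markers of the tissues in which the family is best known did not pass in L/L. Of 14 skeletal muscle markers 0 passed, and their differences ran from −0.06 to 0.13, with the myogenic factor gene Myod1 at 0.07 and the muscle creatine kinase gene Ckm at 0.00. Of 10 heart markers 0 passed, and Tnnt2, the troponin gene with the largest difference, was at 0.51 (adjusted p = 0.426). For Tnnt2 the S control was at 8.73, the L control at 8.03 and L/L at 8.54. The L control minus the S control was −0.70 for Tnnt2 (adjusted p = 0.00768 with limma). Epithelial markers differed by −0.05 to 0.15, with the cadherin gene Cdh1 at 0.08 and Epcam at −0.01, and 0 of 9 passed. At an unadjusted p under 0.05 the counts with limma were 0 of the skeletal muscle, 1 of the heart and 0 of the epithelial markers. Over all genes 3.27% had such a p in L/L, and 0.0401% passed.

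Replication and mitosis genes, a list that holds Ccne1, had mostly positive differences in L/L. Of 12 measured, 11 had a positive difference, as did 11137 of all 19938 genes, and the median was 0.48 against 0.02 over all genes. An unadjusted p under 0.05 was found for 8 of the 12 and for 3.27% of all genes. Only the replicative helicase gene Mcm6 passed, at 1.17 (adjusted p = 0.0308). The L control was itself low for this list. All 12 genes were lower there than in the S control, as were 12353 of all genes, with a median of −0.48. With limma 6 of them passed, against 5.17% of all genes, among them Mcm6 at −0.74 (adjusted p = 0.021). The mean of the list was 0.14 in L/L and 0.17 in the S control. The mean level of this list, relative to the mean of 12 arrays, was −0.62, −0.33 and −0.0046 in the L control and 0.19, 0.067 and 0.17 in L/L. It was −0.016, 0.26 and 0.26 in the S control and −0.064, 0.064 and 0.023 in S/S. The part of these genes in the Bves difference was not tested.

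Macrophage markers varied among the arrays of the L set. Relative to the mean of 12 arrays the level of 9 markers was −0.80, 0.0024 and 1.24 in the L control and −1.20, 0.41 and 0.24 in L/L, for arrays 1, 2 and 3. Bves in the same L/L arrays was 9.02, 8.80 and 8.96. In L/L all 9 macrophage markers had a negative difference, as did 8801 of all 19938 genes. With limma 0 passed and 0 had an unadjusted p under 0.05, against 3.27% of all genes. In S/S all 9 had a positive difference, as did 8454 of all genes. Their level was 0.38 to 0.49 in S/S against −0.55 to −0.26 in the S control. In S/S 0 passed and 1 had an unadjusted p under 0.05, against 10.1% of all genes. Of 7 smooth muscle and 7 endothelial markers 0 passed in either mutant, with medians of 0.18 and 0.03 in L/L and 0.13 and −0.06 in S/S. With limma, an unadjusted p under 0.05 was found for 1 and 0 of them in L/L and for 1 and 2 in S/S. The 2 endothelial markers in S/S were Emcn (1.62) and Flt1 (0.72, adjusted p = 0.0603), while 4 of the 7 had a negative difference. Over all genes 0.0401% passed in L/L and 0.12% in S/S.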

How the data were processed

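Affymetrix Mouse Gene 1.0 ST arrays were used, 1 for each of 12 samples. The deposited values are log2 RMA values, background-corrected, normalized and summarised per probe set by the authors with Partek, per the design text. That they are on a log2 scale was taken from their range. The Partek version and genome build are not given in the sources used here. Probe sets were named through the platform annotation supplied, of which 21789 of 35556 carried 1 symbol. For the 999 genes with several such probe sets the one with the highest mean was taken, with no filter on dim values.

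One limma 3.58.1 model (R 4.3.3) of 4 group means was fitted to 12 arrays over 19938 genes, with 8 residual degrees of freedom, and tested on simulated data. Tests were two-sided, with Benjamini-Hochberg adjustment over all genes in each contrast and a threshold of 0.05. SEs and 95% intervals come from this model. Precision is limited by having 3 arrays a group, and exact permutation of 3 against 3 cannot go below p = 0.1.

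The members, lists and rules were chosen with earlier results of these data known. The named genes were the members, Rb1, up to 3 genes of smallest p in each of 7 pathway lists, 5 measured genes on each side of the members in RefSeq order (GRCm38.p6), and the 5 genes of highest correlation with each member. Those named outside this rule (Cav3, the marker genes and those named only between the controls) were chosen after their values were seen. Same-numbered arrays were not treated as pairs in the main model.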

Additional observations from a re-analysis of the deposited data

Results flagged for a closer look

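For 3 genes named beside the family, the measured differences of the mutants from their controls had opposite signs. Slc43a3, second in likeness to Bves, had an L/L effect that exceeded its S/S effect by 1.42, with S/S at −0.23 and L/L at 1.19. It was named for a likeness that the L/L arrays dominate, so this difference is given without a test. Cldn1 was higher in all S/S arrays than in their control and lower in all L/L arrays than in theirs, at −0.94 for the L/L effect minus the S/S effect, and this difference did not pass (adjusted p = 0.162). Cldn1 also differed between the controls, by 0.60 (adjusted p = 0.0123). Pacsin3 was lower in all S/S arrays and higher in all L/L arrays than in the matched controls. Its L/L difference was only 0.08 (SE 0.11), and the lowest L/L array (7.379) barely exceeded the highest L control array (7.374). The sign of this L/L difference is therefore not established. In the S control, array 1, the one unlike the rest, read 7.95, against 7.54 and 7.58 in arrays 2 and 3. S/S arrays reached 7.36 at most, below those arrays as well. For Pacsin3 the gap of 0.49 separating the mutants stayed short of the threshold with limma (adjusted p = 0.658). Over all genes, all S/S arrays lay above their control in 5.49% and below it in 6.29%. For L/L the shares were 9.71% and 5.1%. The share of genes with such opposite shifts was not counted. For Bves itself, chosen for its difference between the mutants, no test is given.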

How the results depend on the processing

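In the 12 fits without 1 array and in 8 other settings, the difference of Bves ran from 0.89 to 1.02 in L/L and from 0.05 to 0.14 in S/S. Leaving out an array of the other set cannot move such a difference. Nor can the replicate block, fitting each set alone, another choice of genes or probe sets tested, or another estimate of the spread. Popdc2 and Popdc3 did not pass in any setting in which they were tested. In S/S Popdc2 was at 0.020 with array weights, 0.011 after quantile normalization and −0.047 to 0.031 without single arrays, and Popdc3 was at −0.042 to 0.20 without single arrays. The L/L effect of Popdc3 minus its S/S effect was 0.036 with array weights and −0.13 to 0.12 without single arrays. Genes passing in L/L (8) were 336 with array weights, 5 with each set alone, 5 with the replicate block and 2 without the male arrays. Genes passing in S/S (24) were 415 with array weights, 44 with each set alone, 37 with the replicate block and 37 without the male arrays. For the difference between the effects (3) they were 293 with array weights and 8 after quantile normalization. Between the controls (1736) they were 6520 with array weights, 2686 after quantile normalization and 304 without the male arrays. Without single arrays the L/L count ran from 2 to 26, with 26 when array 1 of the S control was left out, 3 and 2 for arrays 1 and 2 of the L control, and 2, 4 and 2 for the L/L arrays. The S/S count ran from 2 to 38, with 38 and 7 when arrays 1 and 2 of the L control were left out, 3 for array 2 of the S control, 3, 2 and 8 for the S/S arrays and 11, 13 and 13 for the L/L arrays. The count for the difference ran from 3 to 21, with 21 for array 1 of the S control, 7 for array 3 of the L control and 5 for S/S array 3, and that between the controls from 525 to 2078. With array weights 4 pathway genes (Adcy2, Adcy4, Cldn1 and Kcnk2) and 1 neighbour (Cd80) passed in L/L, and 2 pathway genes (Adcy7 and Ndrg4) and 1 neighbour (Cd80) in S/S. Without single arrays 0 to 1 pathway genes passed in L/L. The cause was not tested. With the replicate block Popdc2 and Popdc3 had adjusted p-values of 0.923 and 0.55 in S/S with limma. The L/L difference of Bves was 0.96, a value this block cannot move, as each group holds every array number. Deviations of same-numbered arrays correlated at 0.388, 0.475 and −0.122 in the S set and at 0.601, 0.0576 and 0.359 in the L set. Of 12 arrays, 7 correlated best with their own number, and both male arrays had the same number. These values do not settle whether the numbers mark pairs. The labels do not name pairs, so the main model did not use the numbers. Values of Popdc2 and Popdc3 near background limit what these arrays can show of them.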

Other observations

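Between the S control and the L control, 11 of the 82 genes of the partner, cAMP, tight junction and caveola lists passed, 2 higher and 9 lower in the L control, against 3.54% higher and 5.17% lower among all genes. The higher genes were the tight junction gene Cldn1 (0.60) and the CREB factor gene Creb1 (0.43). The lower genes included the membrane repair gene Dysf (−0.97), a reported partner of Popeye proteins, the CREB coactivator genes Crtc1 (−0.68) and Crtc2 (−0.63), the cyclase genes Adcy5 (−0.51) and Adcy2 (−0.43), and the phosphodiesterase genes Pde8a (−0.52) and Pde4a (−0.42). None of the Popeye genes passed in this comparison. The sets cannot be told apart from culture and array handling.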
